A study of Mus musculus with 48 samples.

Results

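Voltage-gated channels open or close with the voltage across a cell membrane, and the genes described here encode those channels and the subunits that assemble with them. The set held 112 protein-coding genes of the 52636 genes in the expression table, and 21896 of those genes were protein-coding. Members were taken by symbol: the sodium channel alpha subunits (Scn, digits and a), the calcium channel alpha-1 subunits (Cacna1 and a letter), and every gene whose symbol starts with Kcn, except Kcnj13 and Kcne2. The symbol rule is wider than the name of the set. It takes in potassium channels that voltage does not gate, namely most inward rectifiers, the 2-pore channels and the small-conductance calcium-activated channels, and also beta subunits and interacting proteins that form no pore.

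The libraries came from punches of the right amygdala of 48 female mice, 8 in each of 6 groups, aged 8 to 11 weeks. Wild-type (WT) mice and mice heterozygous for a targeted deletion in Brd1 (Brd1+/-), a gene for a bromodomain protein of histone acetyltransferase complexes, received vehicle, imipramine (IMN, a tricyclic antidepressant) at 10 mg/kg or fluoxetine (FLX, a serotonin reuptake inhibitor) at 5 mg/kg. All groups had been through behavioural tests that ended with forced swimming shortly before tissue collection. The animals are of 1 mouse line, and the sources used here name no cell type to which the deletion is limited. Levels are in TPM, a share of all transcripts in a library that takes transcript length into account, so levels of different genes can be compared. The unit keeps no read depth, and depth is therefore unknown here. In a bulk punch, fewer cells of a type and less RNA per cell cannot be told apart.

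Sodium channel alpha subunits carry the fast inward current of the action potential. Calcium channel alpha-1 subunits admit calcium at nerve endings (Cacna1a, Cacna1b) or give low-threshold bursts (Cacna1g, Cacna1h, Cacna1i). Kv potassium channels repolarise the membrane, and their families differ in speed: Kv3 channels such as Kcnc1 allow fast firing, Kv7 channels carry a slow brake on firing, and the modifier subunits (Kcnf1, Kcng, Kcns and Kcnv genes) work only in combination with Kv2 subunits. Inward rectifiers and 2-pore channels set the resting potential, and Kcnj10 does so in astrocytes and other glia.

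3 genes recur in the results below, the pore subunits Kcnc1, Kcnh2 and Scn1a, and the 250 bases before a RefSeq transcription start of each are shown because all 3 passed the test between genotypes under FLX. The build is GRCm38.p6 and each sequence runs 5′ to 3′ on the gene's strand. The windows are chr7:46396218-46396467 on the plus strand for Kcnc1, chr5:24329592-24329841 on the minus strand for Kcnh2, where the start lies inside the gene as GENCODE draws it, and chr2:66440838-66441087 on the minus strand for Scn1a. Capitals mark the GC box letters GGGCGG or, on the other strand, CCGCCC.
Kcnc1: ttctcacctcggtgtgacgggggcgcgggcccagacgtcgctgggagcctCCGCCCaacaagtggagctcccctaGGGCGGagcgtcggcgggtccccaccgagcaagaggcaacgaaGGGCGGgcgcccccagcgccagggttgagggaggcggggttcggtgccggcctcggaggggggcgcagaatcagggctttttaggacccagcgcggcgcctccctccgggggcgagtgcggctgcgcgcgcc
Kcnh2: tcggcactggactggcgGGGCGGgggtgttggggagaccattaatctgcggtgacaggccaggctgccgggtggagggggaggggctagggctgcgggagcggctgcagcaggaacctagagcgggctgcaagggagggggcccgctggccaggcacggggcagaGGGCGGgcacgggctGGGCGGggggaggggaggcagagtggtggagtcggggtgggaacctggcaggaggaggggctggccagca
Scn1a: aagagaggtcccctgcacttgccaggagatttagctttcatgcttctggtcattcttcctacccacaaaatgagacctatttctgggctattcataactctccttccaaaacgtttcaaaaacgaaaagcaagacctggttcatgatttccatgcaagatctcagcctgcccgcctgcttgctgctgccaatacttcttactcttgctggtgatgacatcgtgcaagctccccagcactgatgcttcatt
The Kcnc1 and Kcnh2 windows held 3 GC boxes each and the Scn1a window held 0. A GC box stood in 32.7% of all 32851 promoter windows of this length and in 47 of the 111 windows that matched 82 of the 112 channel genes, which is 42.3%. None of the 3 windows held the TATA box letters TATAAA (either strand), which stood in 12.4% of all windows and in 4 of the 111 channel windows.

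Brd1 itself had the lower median in Brd1+/- libraries in each treatment. Its lowest, median and highest values were 26.5, 37.9 and 41.0 TPM in WT vehicle against 21.8, 26.2 and 30.6 TPM in Brd1+/- vehicle. Under IMN they were 31.9, 37.3 and 41.0 TPM in WT and 16.6, 22.8 and 29.5 TPM in Brd1+/-, with no overlap. Under FLX they were 24.9, 33.1 and 39.3 TPM against 18.0, 24.4 and 27.2 TPM, and that was the comparison in which Brd1 passed the test (limma, log2 difference −0.49 ± 0.11 (SE), adjusted p = 0.0362, n = 8 per group). Adjusted p was 0.0512 in vehicle and 0.102 in IMN.

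Libraries differed in what tissue the punch held. The summed level of 10 striatal projection neuron markers ranged from 162 to 9520 TPM, with 13 libraries above 2145 TPM or at it and 35 libraries at or under 1171 TPM. At least 1 library of every group was in the upper range. The 10 hypothalamic and ventral markers summed to between 1.32 and 10330 TPM, the 10 oligodendrocyte markers to between 732 and 18290 TPM, and the 10 choroid plexus markers reached 30060 TPM in WT vehicle replicate 1 and 29470 TPM in Brd1+/- FLX replicate 8. The 8 amygdala markers summed to medians from 289 TPM in Brd1+/- vehicle to 446 TPM in Brd1+/- FLX, with 383 TPM in WT vehicle and 357.4 TPM in WT FLX. Single libraries ran from 153 TPM in WT IMN to 899 TPM in Brd1+/- vehicle. Among these markers, Tac2 and Crh were at 0 in 1 WT vehicle library each.

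Of the 112 channel genes, 88 had a mean of at least 1 TPM over the 48 libraries and 64 had a mean of at least 10 TPM. 24 stayed under 1 TPM, and Kcna7, Kcne1 and Kcnj1 were listed at 0 in all libraries. Summed over the set, the channel genes came to 3423 ± 489 TPM (SD, n = 48), or 0.342% of all TPM, from 2345 TPM in Brd1+/- FLX replicate 8 to 4548 TPM in WT IMN replicate 2. The group means of this sum lay between 3302 ± 372 TPM in Brd1+/- vehicle and 3598 ± 524 TPM in WT vehicle (SD, n = 8), closer together than the libraries of any group.

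**Figure D1:**
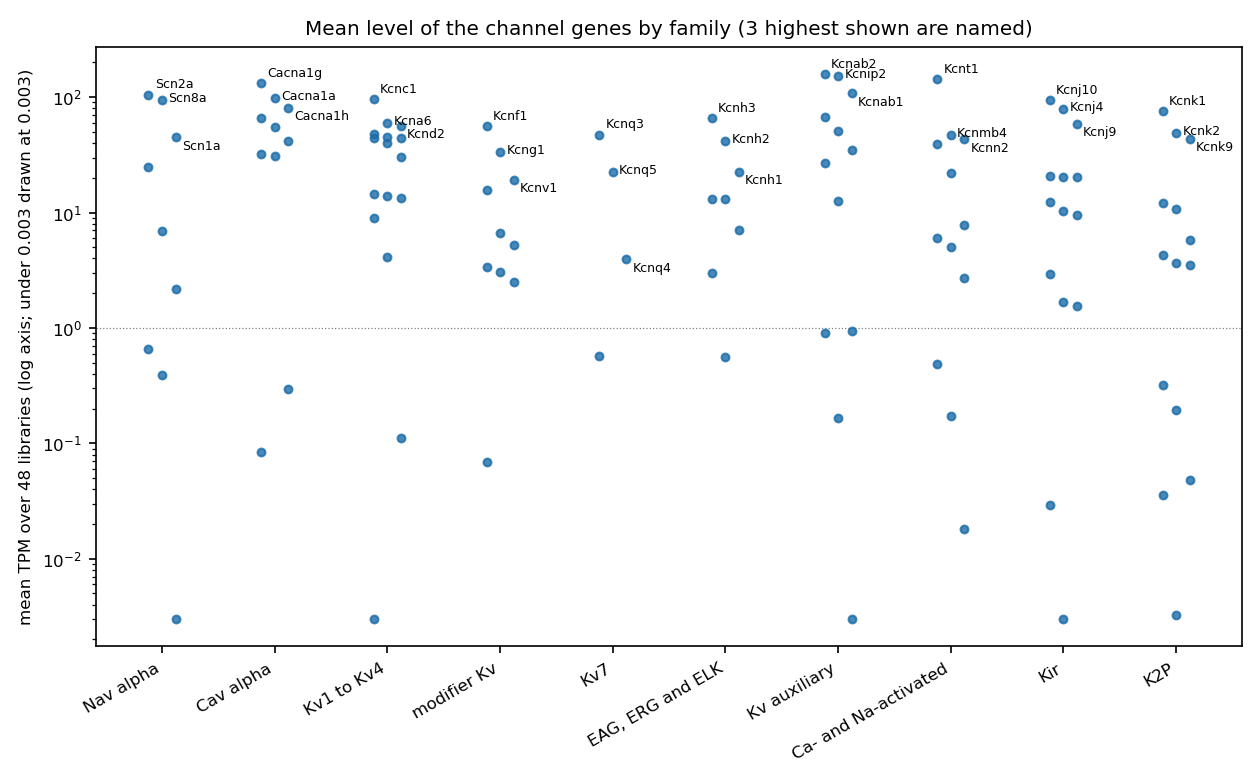
Mean TPM over 48 libraries (vertical log axis) of the channel genes reported here, grouped by family on the horizontal axis, with the 3 highest of each family named. Most points lie above the dotted line at 1 TPM, and Kcnab2, Kcnip2 and Kcnt1 are the highest of those shown.

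Among sodium channels, the neuronal subunits Scn2a at 105 ± 22.7 TPM and Scn8a at 95.0 ± 23.2 TPM led (SD, n = 48), followed by Scn1a at 45.1 TPM and Scn3a at 24.6 TPM. Scn7a, a sodium sensor and not a voltage-gated channel, averaged 2.17 TPM, and the skeletal muscle subunit Scn4a 0.00110 TPM. Nav alpha transcripts together came to 292 ± 42.3 TPM. Scn2a, Scn8a and Scn1a thus held most of this family.

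Calcium channel alpha-1 transcripts summed to 537 ± 108 TPM. The T-type gene Cacna1g had the highest mean of the family, 131.5 ± 66.5 TPM, and also the widest range, from 11.0 TPM in WT vehicle replicate 3 to 239 TPM in WT FLX replicate 8. The P/Q-type gene Cacna1a averaged 98.3 ± 16.8 TPM and the T-type gene Cacna1h 81.3 ± 25.4 TPM. The muscle gene Cacna1s and the retinal gene Cacna1f stayed at 0.294 and 0.0849 TPM.

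The largest family sum among pore-forming genes was that of Kv1 to Kv4, 572 ± 89.8 TPM, led by Kcnc1 at 96.9 ± 35.7 TPM, the delayed rectifier Kcna6 at 59.5 TPM and the A-type subunit Kcnd2 at 56.8 TPM. Modifier subunits summed to 145.3 ± 75.0 TPM, a spread that was large beside the mean, with Kcnf1 at 56.2 TPM and Kcng1 at 33.4 TPM. Kv7 genes summed to 237 TPM, and among them Kcnq3, a subunit of the slow M-current, averaged 47.3 TPM.

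The EAG, ERG and ELK family came to 168 TPM, with the ELK gene Kcnh3 at 66.3 TPM and the ERG gene Kcnh2 at 41.9 TPM. Auxiliary subunits had the highest sum of any family, 613 ± 220 TPM: the beta subunit Kcnab2 averaged 158 TPM, the Kv4 partner Kcnip2 152 TPM and Kcnab1 108 TPM. The sum ran from 359 TPM in Brd1+/- FLX replicate 8 to 1316 TPM in WT vehicle replicate 3, the library with the highest striatal marker sum.

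Calcium- and sodium-activated channels summed to 316 ± 55.3 TPM, led by the sodium-activated Kcnt1 at 143 TPM. Inward rectifiers came to 333 ± 51.2 TPM, with the glial Kcnj10 at 95.0 TPM and the neuronal Kcnj4 at 79.4 TPM and Kcnj9 at 59.0 TPM. The 2-pore family came to 209 ± 39.0 TPM, with Kcnk1 at 76.0 TPM, Kcnk2 at 48.7 TPM and Kcnk9 at 43.8 TPM.

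Across the 6 groups the family sums, which were not tested, moved in different directions. Kv1 to Kv4 transcripts averaged 533 ± 71.3 TPM in WT vehicle, 586 ± 91.1 TPM in Brd1+/- vehicle, 615 ± 60.1 TPM in WT IMN, 549 ± 58.7 TPM in Brd1+/- IMN, 644 ± 90.2 TPM in WT FLX and 502 ± 96.4 TPM in Brd1+/- FLX (SD, n = 8 in each group). Modifier subunits, in the same order, averaged 189 ± 82.1, 132.8 ± 52.7, 118 ± 68.1, 159 ± 68.6, 95.8 ± 48.6 and 178 ± 95.3 TPM. WT FLX thus had the highest mean of the first family and the lowest of the second.

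Group means ran from 263 to 311 TPM for sodium channels, from 507 to 593 TPM for calcium channels, from 207 to 280.1 TPM for Kv7, from 143 to 189 TPM for the EAG, ERG and ELK family and from 533 to 654 TPM for auxiliary subunits. Calcium- and sodium-activated channels ran from 286 to 339 TPM, inward rectifiers from 321 to 350.7 TPM and 2-pore channels from 180.1 to 227 TPM.

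In vehicle-treated mice the question was whether the Brd1 deletion alone was accompanied by other channel levels. By limma with Benjamini-Hochberg adjustment over all genes, 0 of the 98 members tested differed between Brd1+/- and WT at an adjusted p under 0.05, where 0.708% of all genes did, and 7 had an unadjusted p under 0.05 (7.14%, against 8.52% of all genes). Of protein-coding genes 0.0851% passed and 7.01% had such an unadjusted p. The member nearest the threshold was Kcne1l, a small membrane protein that modulates Kv channels, on the X chromosome. It lay at 4.41, 8.02 and 13.8 TPM (lowest, median and highest) in WT vehicle and at 10.6, 17.2 and 23.7 TPM in Brd1+/- vehicle (log2 difference 0.99 ± 0.25 (SE), adjusted p = 0.0901). Without the 2 vehicle libraries with over 5000 TPM of choroid plexus markers, or without WT vehicle replicate 7, Kcne1l passed and the count was 1.

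Neither IMN comparison called a member. Between Brd1+/- and WT under IMN 0 of 98 members passed, beside 0.0170% of all genes. There 4 members had an unadjusted p under 0.05 (3.58% of all genes and 3.06% of protein-coding genes). IMN against vehicle gave 0 of 97 members in WT (0% of all genes), with 4 members at an unadjusted p under 0.05 (4.58% of all genes and 4.37% of protein-coding genes). In Brd1+/- it gave 0 of 98 (0.776% of all genes and 0.105% of protein-coding genes). There 5 members had an unadjusted p under 0.05 (9.30% of all genes and 7.74% of protein-coding genes). In Brd1+/- mice the calcium channel gene Cacna1a had the lowest p: it lay at 91.9, 108 and 135.6 TPM under vehicle and at 81.4, 87.7 and 111 TPM under IMN (log2 difference −0.26 ± 0.09, adjusted p = 0.300). For the genotype-by-IMN term, the difference between the genotype differences, 0 of 103 members passed, beside 0.536% of all genes and 0.0314% of protein-coding genes. An unadjusted p under 0.05 was reached by 10 members (9.24% of all genes and 8.36% of protein-coding genes).

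Under FLX the genotypes did differ in channel genes, and the difference came with other tissue markers. 5 of 98 members passed, 4 lower and 1 higher in Brd1+/-, beside 1.54% of all genes (1.38% lower, 0.165% higher) and 2.07% of protein-coding genes. 1 of the 5, Kcna10, entered the test only through WT FLX, the group where it was high, so it had to differ and adds nothing to the count. At an unadjusted p under 0.05 there were 37 members, 37.8% against 16.6% of all genes and 20.3% of protein-coding genes. Of the 37, 26 were lower, where 11.3% of all genes and 14.6% of protein-coding genes were lower and 5.28% of all genes higher. Kcna10 is among the 26 and adds nothing to these counts either. The median log2 difference of the 98 was −0.04, near the −0.06 of all genes.

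Kcnc1, the Kv3.1 subunit of fast-firing neurons, was lower in Brd1+/- FLX than in WT FLX. Its lowest, median and highest values were 101, 135.1 and 169 TPM in WT FLX and 42.1, 75.8 and 85.8 TPM in Brd1+/- FLX (log2 difference −0.96 ± 0.15 (SE), adjusted p = 0.0113). The 2 groups did not overlap, and WT vehicle, at 39.3, 80.6 and 113 TPM, was closer to Brd1+/- FLX than to WT FLX.

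Kcnh2, the ERG channel that carries a repolarising current, showed the same order. Values were 43.2, 59.1 and 80.7 TPM in WT FLX against 21.9, 28.3 and 39.0 TPM in Brd1+/- FLX, again with no overlap (−0.98 ± 0.15, adjusted p = 0.0113). In WT vehicle Kcnh2 lay at 22.8, 39.2 and 48.4 TPM.

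Scn1a, the sodium channel of many inhibitory interneurons, lay at 40.6, 59.0 and 77.8 TPM in WT FLX and at 17.3, 33.9 and 51.7 TPM in Brd1+/- FLX (−0.87 ± 0.18, adjusted p = 0.0277). The groups overlapped through the highest Brd1+/- library, since the next highest was 36.0 TPM.

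Kcng3, a modifier subunit, was the called member that was higher in Brd1+/- FLX: 1.60, 4.97 and 6.67 TPM against 0.508, 1.63 and 2.64 TPM in WT FLX (1.45 ± 0.35, adjusted p = 0.0443). Under vehicle its point estimate was also higher in Brd1+/- (0.84 ± 0.35, adjusted p = 0.506). It was not called for the genotype-by-FLX term (0.62 ± 0.50, adjusted p = 0.580). Kcna10, a Kv1 relative, passed on values near 0, with a WT FLX maximum of 0.603 TPM and 7 of 8 Brd1+/- FLX libraries listed at 0 (−1.61 ± 0.32, adjusted p = 0.0254, on a log2(TPM + 0.1) scale). It was listed at 0 in 29 of the 48 libraries and, of the pairwise comparisons, passed the filter on low values only in those with WT FLX. Just outside the threshold stood the 2-pore channel Kcnk3 (adjusted p = 0.0507), Kcnab3 (0.0507), Kcnj10 (0.0537), Kcnj5 (0.0614) and the 2-pore channel Kcnk9 (0.0672), all lower in Brd1+/- FLX by point estimate.

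**Figure D2:**
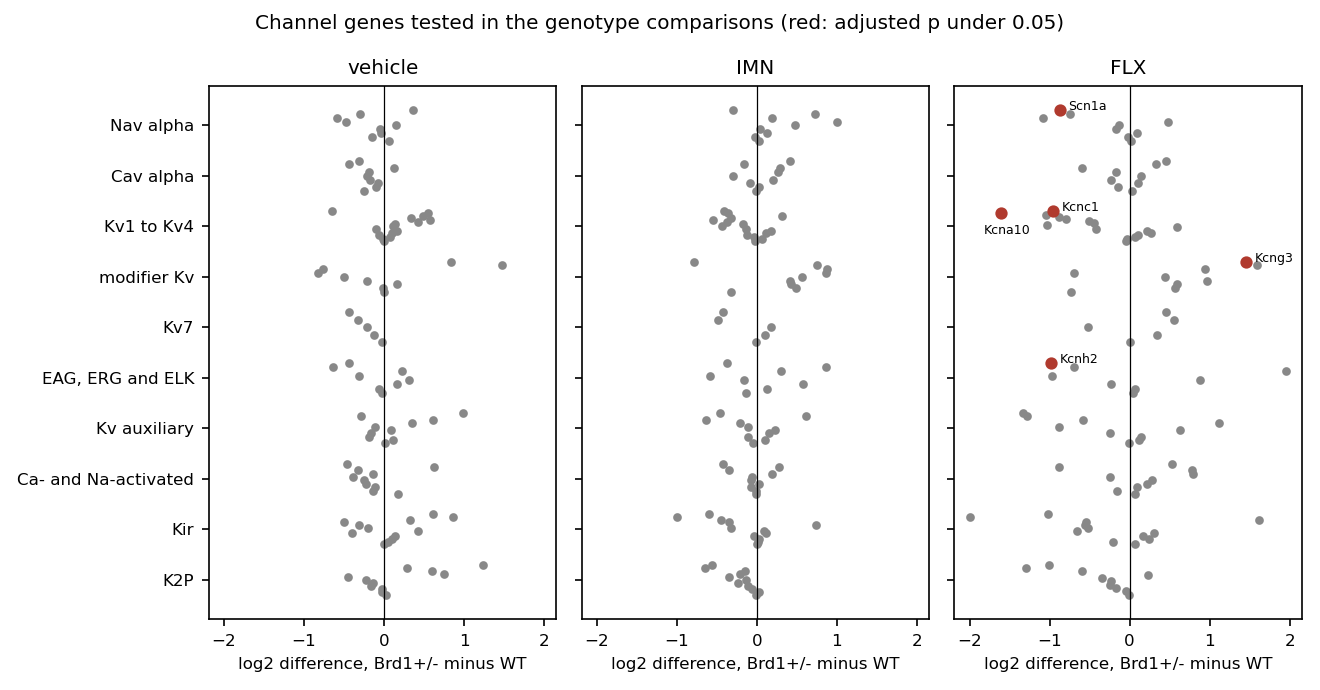
Log2 difference, Brd1+/- minus WT (horizontal axis), of each channel gene tested in vehicle, IMN and FLX, by family on the vertical axis. Red points passed at an adjusted p under 0.05: 0 in vehicle, 0 in IMN and 5 in FLX.

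An unadjusted p under 0.05 was reached by 16.6% of all genes in this comparison, 11.3% lower and 5.28% higher. Of protein-coding genes 20.3% reached it, 14.6% lower. By family, 8 of 16 Kv1 to Kv4 members had such a p, all lower in Brd1+/- FLX, with a family median of −0.43. Kcna10 is counted in the 8 and the 16, though it entered the test only through WT FLX and adds nothing. Of 12 inward rectifiers 7 had such a p, 6 of them lower, and of 10 auxiliary subunits 5 did, 4 of them lower. The modifier family leaned the other way: 3 of 9, all higher, with a family median of 0.60. Of 5 Kv7 members 2 had such a p, both higher. The counts were 3 of 9 for sodium channels, all lower, 3 of 8 for the EAG, ERG and ELK family (2 lower), 3 of 10 for calcium- and sodium-activated channels (1 lower), 2 of 10 for 2-pore channels, both lower, and 1 of 9 for calcium channels, higher. The 1 of 9 lay under both shares, and the 2 of 10 lay near that of protein-coding genes. The Kv4 partner Kcnip2 was at 30.9, 73.0 and 145.3 TPM in WT FLX and at 94.9, 141.6 and 446 TPM in Brd1+/- FLX (1.12 ± 0.37, adjusted p = 0.135).

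A separate list held 38 auxiliary and partner genes outside the symbol rule. Among them were calcium channel beta, gamma and alpha-2-delta subunits and HCN pacemaker channels. The list gave 4 called of 37 tested, all lower in Brd1+/- FLX (10.8%). Of all genes 1.54% were called and 1.38% called lower, and of protein-coding genes 2.07% were called. The gamma subunit Cacng7 lay at 72.4, 81.5 and 90.9 TPM in WT FLX and at 53.3, 61.9 and 70.2 TPM in Brd1+/- FLX (−0.41 ± 0.07, adjusted p = 0.0149). The pacemaker channel Hcn4 lay at 6.70, 8.11 and 10.8 TPM against 1.42, 4.16 and 6.46 TPM (−1.15 ± 0.24, adjusted p = 0.0302). Neither gene's groups overlapped. The other two were Cacng2, another gamma subunit (−0.77, adjusted p = 0.0328), and Lrrc55, a gamma subunit of the large-conductance channel (−1.26, adjusted p = 0.0295).

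Markers of other tissue moved in the same comparison. The hypothalamic and ventral list summed to 10.7, 75.3 and 4598 TPM (lowest, median and highest) in WT FLX. In Brd1+/- FLX it summed to 3.72, 7.54 and 19.5 TPM. Of its 7 genes tested 6 were lower in Brd1+/-, 2 of them called, with a median log2 difference of −3.99. The 2 called, Lhx5 and Fezf1, were at 0 in 6 and 5 of 8 Brd1+/- FLX libraries. Without WT FLX, where they were high, they could not have passed the filter on low values, so their calls add nothing. All 10 oligodendrocyte genes were lower by point estimate (median −0.56) and all 10 striatal genes higher (median 0.48), with 0 called in either list. Of 9 astrocyte genes 8 were lower by point estimate (median −0.12), and Fgfr3 was called (−0.71, adjusted p = 0.0284). Of 8 pan-neuronal genes 6 were lower (median −0.13), and Tubb3 was called (−0.51, adjusted p = 0.0328). Immediate-early genes, which rise with recent neuronal activity, summed to a median of 174.9 TPM in WT FLX and 331 TPM in Brd1+/- FLX, with 7 of 8 tested higher by point estimate and 0 called. The part of these 3 lists in the channel differences was not tested. The sums of the oligodendrocyte and striatal lists overlapped between the groups, at 2139 to 9198 TPM in WT FLX and 965 to 18290 TPM in Brd1+/- FLX for the oligodendrocyte list. With the hypothalamic list's score as a covariate, 0 members and 0 of all genes passed, and the log2 difference was −0.83 for Kcnc1 (adjusted p = 0.496), −0.72 for Kcnh2 (0.496), −0.73 for Scn1a (0.644) and 0.77 for Kcng3 (0.927). Without WT FLX replicates 1, 2 and 3, whose hypothalamic list summed to over 1000 TPM, 0 members and 0 of all genes passed. The log2 difference was then −0.93 for Kcnc1 and −0.84 for Kcnh2 (adjusted p = 0.213 each). The hypothalamic score averaged 1.77 in WT FLX and −1.73 in Brd1+/- FLX, so it was tied to the group. A fit with that score, or with fewer WT FLX libraries, is less able to call a difference. Neither setting can tell tissue content from genotype.

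FLX against vehicle in WT mice uses the same WT FLX libraries. There 4 of 98 members passed, all higher under FLX, beside 0.335% of all genes (0.280% higher) and 0.435% of protein-coding genes. An unadjusted p under 0.05 was reached by 25, 13 higher and 12 lower (25.5% against 16.8% of all genes and 19.8% of protein-coding genes). By the same rule 10.5% of all genes were higher and 6.25% lower, and 0.0552% were called lower. Kcnj10, the potassium channel of astrocytes that clears potassium around active neurons, lay at 44.7, 55.7 and 102 TPM in WT vehicle and at 67.5, 167 and 195 TPM in WT FLX (1.23 ± 0.21, adjusted p = 0.0251). 7 of the 8 WT FLX libraries, at 131 TPM or more, were above every WT vehicle library.

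Scn1a lay at 21.9, 34.6 and 46.9 TPM in WT vehicle, and its WT FLX values given above were higher (0.77 ± 0.15, adjusted p = 0.0424). Kcne1l rose from a median of 8.02 to 18.5 TPM, with a WT FLX range of 10.3 to 25.6 TPM (1.10 ± 0.22, adjusted p = 0.0455). Kcna10 was above 0 in 1 of 8 WT vehicle and 8 of 8 WT FLX libraries (1.67 ± 0.29, adjusted p = 0.0251). It again entered the test only through WT FLX. Its place among the 4, and among the 25 members with an unadjusted p under 0.05, thus follows from the filter on low values.

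The modifier subunit Kcng1 had the lower median under FLX in WT, at 11.9, 47.4 and 103 TPM in WT vehicle against 4.45, 12.4 and 29.0 TPM in WT FLX (−1.87 ± 0.50, adjusted p = 0.0912). All 10 oligodendrocyte genes had higher point estimates in WT FLX (median 1.23) and 8 of 8 hypothalamic and ventral genes did (median 2.59), with 0 called in each list. Of 9 astrocyte genes 8 were higher by point estimate (median 0.27), and Gjb6, an astrocyte connexin, was called (1.03, adjusted p = 0.0498), while the summed astrocyte list had medians of 1163 TPM in WT vehicle and 1177 TPM in WT FLX. All 8 immediate-early genes tested had lower point estimates (median −0.99), and Egr1 and Npas4 were called. The part of the astrocyte and immediate-early lists in the channel differences was not tested. With the oligodendrocyte or the hypothalamic score as a covariate 0 members passed, and 0 of all genes did, against 79 of all genes without a covariate. Both scores differed between the groups, so these fits cannot tell tissue content from drug. The oligodendrocyte score averaged 6.97 in WT vehicle and 8.20 in WT FLX, and the hypothalamic score −1.43 and 1.77. Leaving out any of WT FLX replicates 1, 2, 3, 4 and 7 or WT vehicle replicates 2, 4, 6 and 8 also left 0 members. The count rose to 9 without WT vehicle replicate 1, the library with the highest choroid plexus sum, and to 9 without WT vehicle replicate 7.

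In Brd1+/- mice FLX against vehicle called 0 of 98 members, beside 0.731% of all genes and 0.0327% of protein-coding genes. An unadjusted p under 0.05 was reached by 9 members (9.18%, against 6.94% of all genes and 4.51% of protein-coding genes). Kcnc1 had the lowest p. It lay at 67.9, 94.5 and 173 TPM under vehicle and at the FLX values given above (−0.62 ± 0.20, adjusted p = 0.334).

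The genotype-by-FLX term asks whether the genotype difference under FLX departed from that under vehicle, and so draws on all 4 of those groups. 8 of 101 members passed, all negative, beside 1.71% of all genes (1.53% negative) and 1.6% of protein-coding genes. 25 had an unadjusted p under 0.05, 14 negative and 11 positive (24.8% against 16.8% of all genes and 18.8% of protein-coding genes). Of all genes 11.7% were negative and 5.08% positive by that rule. By the adjusted rule 0.176% of all genes were positive. They spanned 5 families: Scn1a (−1.22 ± 0.27, adjusted p = 0.0144), Kcnc1 (−1.45 ± 0.28, 0.00535) and Kcna10 (−1.85 ± 0.47, 0.0336), Kcnh2 (−1.21 ± 0.25, 0.00901), the auxiliary subunits Kcnab3 (−1.95 ± 0.50, 0.0378) and Kcne1l (−1.87 ± 0.39, 0.00958), and the inward rectifiers Kcnj10 (−1.63 ± 0.37, 0.0183) and Kcnj5 (−2.85 ± 0.70, 0.0277). Kcna10 reached 0.1 TPM in all 8 WT FLX libraries and in 1 WT vehicle, 2 Brd1+/- vehicle and 1 Brd1+/- FLX library. Without WT FLX it would not have entered this test either, and it adds nothing to the counts of 8 and 25. The median over the 101 members was −0.04, and −0.10 over all genes. The genotype-by-IMN term shares the vehicle groups with this one. There Kcnc1 (−0.86), Kcnj10 (−1.06), Kcne1l (−1.04), Kcnj5 (−1.86) and Scn1a (−0.65) were negative with an unadjusted p under 0.05. By limma their adjusted p ran from 0.433 to 0.496. Kcnab3 (−1.07) and Kcnh2 (−0.60) were negative by point estimate, and Kcna10 was positive (0.35).

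**Figure D3:**
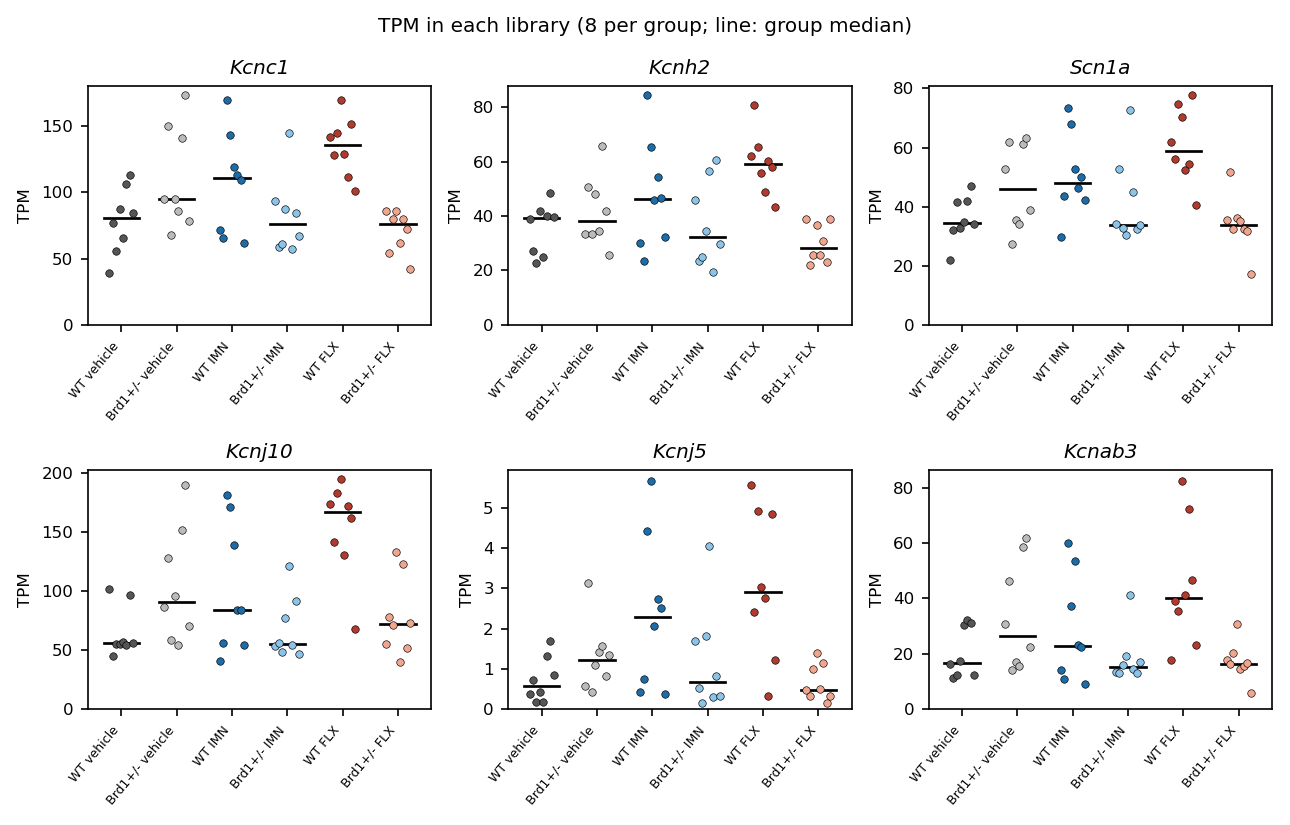
TPM (vertical axis from 0) in each of the 8 libraries of the 6 groups for 6 genes that passed for the genotype-by-FLX term, with a line at each group's median. WT FLX has the highest median in all 6 panels, and 3 to 6 of the 40 other libraries reach that median in each panel.

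Medians of 3 of these genes are given for the 4 groups behind this term. Kcnj10 had medians of 55.7 TPM in WT vehicle, 91.0 TPM in Brd1+/- vehicle, 167 TPM in WT FLX and 71.8 TPM in Brd1+/- FLX. Kcnab3, a beta subunit of Kv1 channels, had medians of 16.7, 26.5, 40.2 and 16.3 TPM in the same order. Kcnj5, a subunit of G protein-gated channels, was low in all 4, with medians of 0.563, 1.22, 2.90 and 0.481 TPM, and its WT FLX values ran from 0.332 to 5.58 TPM. WT FLX had the highest median and Brd1+/- vehicle the next for these 3 genes, with overlapping ranges between those 2 groups, and the order of the other two groups differed between genes.

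Levels as high as the WT FLX median also occurred in other groups. Among the 40 other libraries, 6 reached it for Kcnc1, 4 for Kcnh2, 6 for Scn1a, 3 for Kcnj10, 4 for Kcnj5 and 6 for Kcnab3. For Kcnc1 these were 3 Brd1+/- vehicle, 2 WT IMN and 1 Brd1+/- IMN library. No WT vehicle and no Brd1+/- FLX library reached it for any of the 6 genes. These 6 were picked from the members called for the genotype-by-FLX term, which sets WT FLX against both of those groups. Kcne1l, also called for that term, is not among the 6. Its value in Brd1+/- FLX replicate 4, 21.1 TPM, lay above its WT FLX median.

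For this term all 10 oligodendrocyte genes were negative (median −2.07), and 9 of 9 hypothalamic and ventral genes tested were negative (median −4.34). Of 9 astrocyte genes 8 were negative, with Fgfr3 called (−1.08, adjusted p = 0.0374), and all 9 immediate-early genes were positive, 3 of them called, and the part of these 2 lists was not tested. With the oligodendrocyte score as a covariate 3 members passed, Kcnc1, Kcna10 and Cacna1a, and Kcnc1 had a log2 difference of −1.37 (adjusted p = 0.0322) while Kcnj10 went from −1.63 to −0.84 (0.124). With the hypothalamic score 0 members passed. That score had its highest group mean in WT FLX, so the fit cannot tell tissue content from this term. Without the libraries over 1000 TPM of the hypothalamic list Kcnc1 alone passed (−1.42, adjusted p = 0.0317), and without those over 2000 TPM of the striatal list 0 did.

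Libraries of the same group also differed from each other in channel genes. The 10 members with the largest SD of log2(TPM + 0.1) within groups, among those with a mean of at least 1 TPM, included Scn7a (1.78), Kcnj6 (1.51), Kcnh4 (1.496), Kcng4 (1.43), Kcnh3 (1.40), Kcnj4 (1.39), Cacna1g (1.26), Kcnc4 (1.22) and Kcng1 (1.21). Kcnh3 ran from 0.867 TPM in WT FLX replicate 1 to 131.5 TPM in WT vehicle replicate 3. Kcnj4, the inward rectifier Kir2.3, ran from 2.77 to 219.9 TPM between the same libraries (lowest and highest of 48).

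These 10 genes were related to the scores of 4 marker lists over the 48 libraries after group means had been removed, 40 relations in all, and 21 had a Benjamini-Hochberg adjusted permutation p under 0.05. Points share their libraries, and TPM values share a fixed total. In the 16 vehicle libraries alone 13 relations passed, and in the 32 drug libraries alone 21 did.

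Kcnj4 was lower where hypothalamic and ventral markers were higher (r = −0.89, rho = −0.89, adjusted permutation p = 4.4e-05 for r and 5e-05 for rho, n = 48). r was −0.88 without the 2 libraries farthest from the median score, −0.86 in vehicle libraries and −0.90 in drug libraries. Kcnh3 showed the same relation (r = −0.83, rho = −0.85, adjusted permutation p = 4.4e-05 and 5e-05), with r = −0.79 without 2 libraries, −0.82 in vehicle and −0.84 in drug libraries. Both adjusted p-values come from the smallest p that 100000 permutations can give.

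Kcng1 was lower where oligodendrocyte markers were higher (r = −0.79, rho = −0.79, adjusted permutation p = 4.4e-05 and 5e-05), with r = −0.78 without 2 libraries, −0.82 in vehicle and −0.78 in drug libraries. Kcng4, another Kv2 modifier, was higher there (r = 0.50, rho = 0.50, adjusted permutation p = 0.0004 and 0.0012), with r = 0.53 without 2 libraries, 0.70 in vehicle and 0.40 in drug libraries. The 2 modifier genes thus had opposite signs on the same list.

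Because the striatal list left a gap between 1171 and 2145 TPM, its relations were taken within the 35 libraries under and, apart from the lone WT FLX library, the 12 over the gap, 20 relations in all. Kcnc4, a Kv3 subunit, was lower with more striatal markers in the 35 (r = −0.62, rho = −0.60, adjusted permutation p = 0.0130 and 0.0148), with r = −0.60 without 2 libraries. In the 12 it had r = −0.90 and rho = −0.90 (adjusted permutation p = 0.0789 and 0.0811), where 288 arrangements allow no unadjusted p under 0.00347. Kcnc4 in the 12 gave r = −0.74 in the 9 libraries left without the 2 farthest and a library then alone in its group.

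Kcnh4, an ELK channel, was positive in both ranges, with r = 0.45 and rho = 0.47 in the 35 (adjusted permutation p = 0.0789 and 0.0742). In the 12 it had r = 0.96 and rho = 0.96 (adjusted permutation p = 0.0789 and 0.0811), with r = 0.37 and 0.92 without the farthest libraries. Kcnj6, the GIRK2 channel, was negative in the 12 (r = −0.93, rho = −0.94, adjusted permutation p = 0.0736 and 0.0372, r = −0.85 in 9). In the 35 it had r = −0.33 and rho = −0.29 (adjusted permutation p = 0.175 and 0.198). Cacna1g had r = −0.12 in the 35 (adjusted permutation p = 0.703) and r = −0.81 in the 12 (0.130), so within the 35 no relation was detectable.

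**Figure D4:**
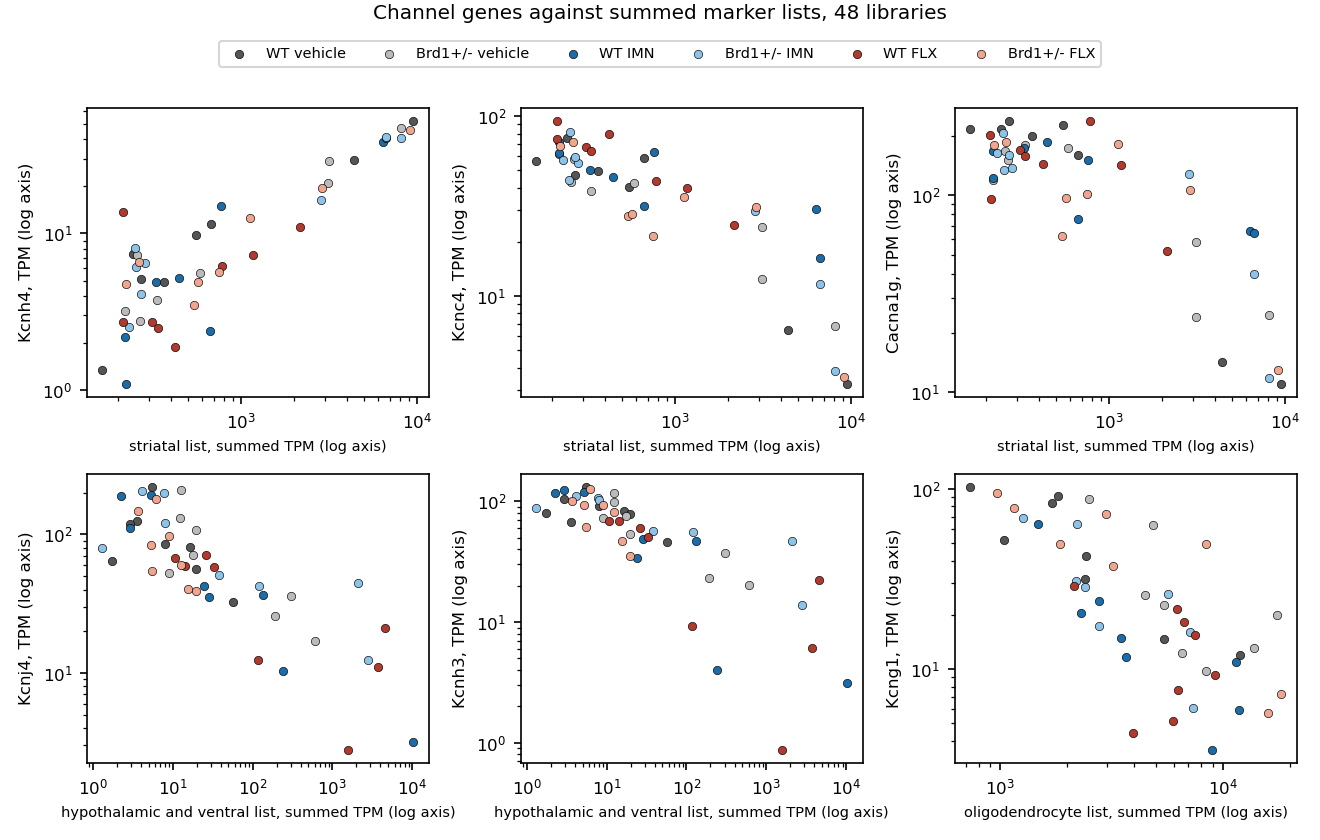
TPM of 6 channel genes (vertical log axes) against the summed TPM of a marker list (horizontal log axes) in 48 libraries coloured by group. Kcnh4 rises and Kcnc4 and Cacna1g fall towards high striatal sums, Kcnj4 and Kcnh3 fall with hypothalamic and ventral sums, and Kcng1 falls with oligodendrocyte sums.

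WT vehicle replicate 3, with the highest striatal sum, shows the range in 1 library. It had the lowest Cacna1g (11.0 TPM), Kcnc4 (3.24 TPM) and Kcnj6 (0.347 TPM) and the highest Kcnh4 (52.3 TPM), Kcnj4 (219.9 TPM), Kcnh3 (131.5 TPM), Kcnip2 (548 TPM) and Kcnab1 (418 TPM) of all 48. In WT vehicle replicate 5, with the lowest striatal sum, Cacna1g was 217 TPM, Kcnc4 56.5 TPM, Kcnh4 1.34 TPM, Kcnip2 87.5 TPM and Kcnab1 55.3 TPM. Both were vehicle-treated WT mice.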

How the data were processed

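Punches of the amygdala of 48 mice were sequenced by the authors. Per the labels and the study's methods, reads were trimmed with Trimmomatic, aligned to GRCm38 with HISAT2 2.1.0 and quantified with StringTie 1.3.4, and the deposited values are TPM per gene. The design text also names other brain regions, and the sample labels were followed. TPM keep no depth, so no counting interval is given. All 48 columns matched 1 sample by title (0 columns left over). Gene classes and positions came from GENCODE M21 (GRCm38), promoters from RefSeq (GRCm38.p6).

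Values were tested as log2(TPM + 0.1) with limma 3.58.1 (moderated, trended, R 4.3.3), keeping genes with at least 0.1 TPM in at least 8 libraries of the comparison and adjusting p over all genes tested. Pairwise fits held the 2 groups of the comparison and interaction fits the 4 groups. The fit was tested on simulated data before use. Members, marker lists and tests were chosen with earlier results of these data known. Genes named are those called, up to 2 per direction with the lowest p under 0.01, the 3 highest of each family and the 10 most variable within groups, while the members just outside the threshold, members used as examples of a family and the called partner genes were named after their values were seen. Some genes that the rule names are not reported here. Mice are the replicates. Alternatives covered pseudocount, filter, scaling, covariates, sample code range, a replicate block and left-out libraries. Every vehicle library had a lower sample code than every drug library. Drug and code therefore cannot be separated in the comparisons of a drug with vehicle, and the code range term cannot remove that gap. Among drug libraries the highest codes were all WT, so genotype and code are partly tied there. Pairing by replicate number rests on no label beyond the number.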

Additional observations from a re-analysis of the deposited data

Results flagged for a closer look

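For 8 channel genes the genotype difference under FLX departed from that under vehicle (limma interaction term, adjusted p from 0.00535 to 0.0378, n = 8 per group), beside 1.71% of all genes. With the hypothalamic score as a covariate, or without the libraries rich in striatal markers, 0 of the 8 passed. The hypothalamic score was tied to the groups, and the other setting has fewer libraries, so both are less able to call a difference. Over all genes the count went from 455 to 68 and to 28 in those settings. Kcna10 entered the test only through WT FLX. The log2 values were −1.45 for Kcnc1, −1.21 for Kcnh2, −1.87 for Kcne1l, −1.22 for Scn1a, −1.63 for Kcnj10, −2.85 for Kcnj5, −1.85 for Kcna10 and −1.95 for Kcnab3.

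Among 15 genes in 6 groups, 90 sets of 8 values, 12 held a library far from the others of its group. The limit used flags about 1 in 20 sets of normally distributed values by chance. The values here are TPM, and the genes were picked from test results and share libraries, so no excess over chance is claimed. In Brd1+/- IMN these were Cacna1a at 110.8 TPM in replicate 3, and Kcnab3 at 41.1 TPM, Kcnc1 at 144.6 TPM and Kcnj5 at 4.04 TPM in replicate 5, a library whose hypothalamic and ventral markers summed to 2820 TPM. Kcnip2 was far above its group in the striatal-rich libraries Brd1+/- FLX replicate 2 (445.5 TPM) and WT vehicle replicate 3 (548.3 TPM). Kcng1 reached 63.5 TPM in WT IMN replicate 1, and Kcnj5 reached 3.12 TPM in Brd1+/- vehicle replicate 2. Kcna10 stood out at 0.603 TPM in WT FLX replicate 8 and 0.607 TPM in WT IMN replicate 4. It also did at 0.293 TPM in Brd1+/- FLX replicate 1 and 0.185 TPM in WT vehicle replicate 5. All other libraries of those last groups were at 0, so any value above 0 would have stood out.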

How the results depend on the processing

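Counts of called members were 0 under every setting run, left-out libraries included, for Brd1+/- against WT under IMN, for IMN against vehicle in both genotypes and for FLX against vehicle in Brd1+/-. For Brd1+/- against WT under FLX (5 called), the count was 9 with protein-coding genes only, 8 with the oligodendrocyte score as a covariate, 2 with the sample code range as a term, and 0 in 1 fit of all 48 libraries or with the hypothalamic score. Settings chosen after seeing the data gave 0 with 4 list scores together, and 3, 2 and 0 without the libraries rich in striatal, choroid plexus or hypothalamic markers. Leaving out 1 library gave 2 to 9: the count was 2 without WT FLX replicate 1, 2, 3 or 7 or Brd1+/- FLX replicate 5 or 7, 3 without Brd1+/- FLX replicate 8, 8 without WT FLX replicate 8 and 9 without Brd1+/- FLX replicate 4. For FLX against vehicle in WT (4 called), the count was 2 with no filter, without a trend or with the sample code range, 0 in 1 fit of all 48 libraries and with the oligodendrocyte or hypothalamic score or 4 scores, 9 without the striatal-rich libraries (6 higher, 3 lower), 0 without the hypothalamic-rich ones and 0 to 9 with 1 library left out, where WT FLX replicate 5 left 1 and WT vehicle replicate 5 left 2. For genotype by FLX (8 called), it was 5 in 1 fit of all 48 libraries, 3 with the oligodendrocyte score, 0 with the hypothalamic score, 4 scores or no striatal-rich libraries, 1 without the hypothalamic-rich ones, and 5 to 9 with 1 library left out, 5 without WT FLX replicate 3 or 7 or Brd1+/- FLX replicate 7. For vehicle it was 1 without the choroid-rich libraries and 0 to 1 with 1 library left out, and for genotype by IMN 1 (Cacna1a) with 4 scores. Counts over all genes moved too. Between Brd1+/- and WT under FLX they fell from 364 to 29 in 1 fit of all 48 libraries. For FLX against vehicle in WT they went from 79 to 608 without the striatal-rich libraries and to 1 without the hypothalamic-rich ones. For genotype by FLX they fell from 455 to 28 without the striatal-rich libraries. For genotype by IMN with 4 scores they fell from 143 to 131, where the member count rose. The cause of these changes was not tested. Relations with marker lists fell from 21 to 13 in the 16 vehicle libraries, which are fewer samples. 1 sign turned: the value of Kcnh3, genotype by FLX, went from 2.59 to −0.0437 with 4 scores.

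With a replicate block the counts were 2 for Brd1+/- against WT under FLX, 0 for FLX against vehicle in WT and 6 for genotype by FLX. Over all pairs of groups, same-numbered libraries did not deviate together (median correlation −0.035, against −0.011 for other numbers), and 4 of 48 correlated best with their own number. By comparison, the median was 0.137 for Brd1+/- against WT under IMN and 0.152 for IMN against vehicle in Brd1+/-. In the other pairwise comparisons it lay between −0.102 and −0.002. Depth is unknown, so values under 1 TPM carry an unknown number of reads.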

Other observations

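Neighbouring channel genes differed widely in level. On chromosome 2 (GRCm38) 5 sodium channel genes lie between 65457118 and 66784914, in the order Scn3a, Scn2a, Scn1a, Scn9a and Scn7a, with means of 24.6, 105, 45.1, 6.86 and 2.17 TPM over 48 libraries, and Scn1a was the one called in the FLX comparisons. On chromosome 3, Kcna3, Kcna2, Kcna10 and Kcnc4 lie in that order between 107036169 and 107459552, with means of 13.5, 48.1, 0.112 and 44.0 TPM. Kcnmb1, at 0.483 TPM, lies inside the span of Kcnip1, at 34.7 TPM, on the other strand of chromosome 11, and exon overlap between the pair was not examined. On chromosome 1, Kcnj9 and Kcnj10 lie side by side on opposite strands with means of 59.0 and 95.0 TPM.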
